A study of Mus musculus with 12 samples.

Results

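The intensities of 4 miRNA families, miR-297, miR-466, miR-467 and the miR-669 family, were examined in the quadriceps of mice that lack cofilin-2 (Cfl2-KO, here KO) and of wildtype (WT) mice. The members were chosen by name alone, as every array name that begins with miR-297 or miR-466, or with miR-467 or miR-669, and goes on with a letter, a star or an arm, which gave 72 of the 1096 miRNA names. The families were singled out because earlier results of the same samples had shown them to vary between mice, above all in the sample KO1, so that their values in these samples are given as a description. The 6 KO samples (KO1 to KO6) carry the genotype label cofilin-2 null and the 6 WT samples (WT1 to WT6) the label wildtype, all are of the strain C57Bl/6, and all were taken on postnatal day 7. Cofilin-2 is the skeletal muscle form of cofilin, an actin-binding protein, and the KO pups develop a myopathy and die young. According to the methods the mice were 6 pairs, each of a KO mouse and a WT littermate. In the labels the dye is Cy5 for each WT sample and Cy3 for each KO sample, so that dye and genotype cannot be told apart. No Cfl2 signal exists on a miRNA array, and the genotype was not checked from the values.

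Most genes of these families lie side by side in an intron of Sfmbt2, which encodes a Polycomb protein. The cluster is found in rodents and grew by repeated duplication of a block of miRNA genes, so that many members have nearly the same sequence. Sfmbt2 is imprinted and expressed from the paternal copy in early embryos and placenta, and the cluster is known for its expression in embryonic stem cells and placenta, where its miRNAs act on genes of growth and cell death. A hairpin gives a product from each of its arms, called 5p and 3p, and the older names on this array mark the product found less often with a star. The seed, bases 2 to 8 of a mature miRNA, is the part that pairs first with a target.

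In the RefSeq gene table of GRCm38.p6, 71 of the 81 genes named for these families lay within the bounds of Sfmbt2 and 10 lay elsewhere. Of the 72 member names, 55 matched only genes inside Sfmbt2, 9 only genes outside it and 5 both, and 3 matched no gene by name. As 16 of the names matched more than 1 gene, with up to 12 genes for a name, an intensity cannot be assigned to a single gene copy.

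Mature sequences were taken from RefSeq (GRCm38.p6) where the array name matched exactly, which was the case for 8 of the 72 members. All 8 come from genes outside Sfmbt2, and they are shown because most of them are built on a short repeat and some were low in KO1 and others not. Each is written 5′ to 3′ with the seed in capitals.
miR-467f: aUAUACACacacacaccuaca
miR-466q: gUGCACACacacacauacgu
miR-466i-3p: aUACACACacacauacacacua
miR-467g: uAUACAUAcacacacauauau
miR-466j: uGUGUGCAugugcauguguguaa
miR-669n: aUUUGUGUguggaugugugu
miR-467h: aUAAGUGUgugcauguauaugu
miR-466k: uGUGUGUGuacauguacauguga

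The first 4 are built on an alternating A and C repeat and the last 4 on an alternating U and G repeat. The run of alternating A and C was 12 bases long in miR-467f and miR-466q, 11 in miR-466i-3p and 9 in miR-467g. The run of alternating U and G was 9 bases long in miR-466k, 8 in miR-669n and 7 in both miR-466j and miR-467h. Of the 8, 7 held ACACACA or UGUGUGU, against 4 of the other 318 array names with an exact match (1.26%). miR-467h, with GUGUGUG, held neither. All 8 seeds were different. miR-467f and miR-467g were 5 edits apart, and so were miR-467f and miR-466i-3p, where an edit is a base changed, added or removed. miR-467f lies on chromosome 11 within the bounds of Fxr2 (chr11:69635419-69635439, minus strand), miR-466q within Tnik (chr3:28419988-28420007, plus strand), miR-466i-3p within Cdk13 (chr13:17747552-17747573, plus strand) and miR-467g within Grk4 (chr5:34732872-34732892, minus strand). miR-669n lies within Slc30a7 (chr3:115979905-115979924, plus strand) and miR-466k within Gm31419 (chr3:85467396-85467418, plus strand). miR-466j (chr10:60960802-60960824, plus strand) and miR-467h (chr9:115381898-115381919, plus strand) lie within no other gene of the table.

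The summed intensity of a sample was 594311 to 626783 in WT and 610239 to 636136 in KO, and the median name of a sample was at 12 to 14, which marks the dim end of the array. Of the muscle markers, miR-133a, miR-133b and miR-206 were bright, miR-208b and miR-499 were dim, and together the 5 measured of 7 listed summed to 35781 to 48034 in WT and 31264 to 44065 in KO. The leukocyte list summed to at most 63, the neural list to at most 38 and liver miR-122 to at most 16 in any sample. The erythroid list, miR-451 and miR-144, summed to 49 to 420 in WT, 318 in KO1, 18 in KO2 and up to 216 in the other KO samples. The endothelial list, miR-126-3p and miR-126-5p, summed to 2233 to 4745 in WT, 2240 in KO1 and 765 in KO2, with 2709 as the highest KO value. The embryonic stem cell list was at 1406 in KO1, mostly miR-290-5p, against 181 to 391 in the other KO samples and 107 to 259 in WT. The part of these cell types and of the library in the results below was not tested. In tissue RNA, fewer cells of a type and less of an RNA per cell cannot be told apart.

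Of the 72 members, 44 had a mean intensity of at least 32 over the 12 samples and were tested, among 370 names in all. These were 2 of 5 names of miR-297, 16 of 27 of miR-466, 8 of 13 of miR-467 and 18 of 27 of miR-669. By the arm in the name, 13 of 15 names with 3p and 13 of 15 star names reached this level, against 5 of 17 with 5p and 13 of 25 with no arm. Where a name was measured with and without a star, the star name was the brighter in most pairs. The mean was 6039 for miR-467b* and 4.08 for miR-467b. The star name was also the brighter for miR-467a, miR-467c, miR-467d, miR-467e, miR-669b, miR-669c, miR-669e, miR-669k and miR-669l. Only miR-297a* and miR-669d* were dimmer than miR-297a and miR-669d. The members were among the brighter names of the array, with a median mean intensity of 1186 over the 44, against 195.2 over the other 326. Together the 72 members made up 10.2 to 13.3% of the summed intensity in WT and 9.70 to 14.9% in KO. Brightness also depends on the probe, so that levels of different members are not ranked here as amounts.

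**Figure D1:**
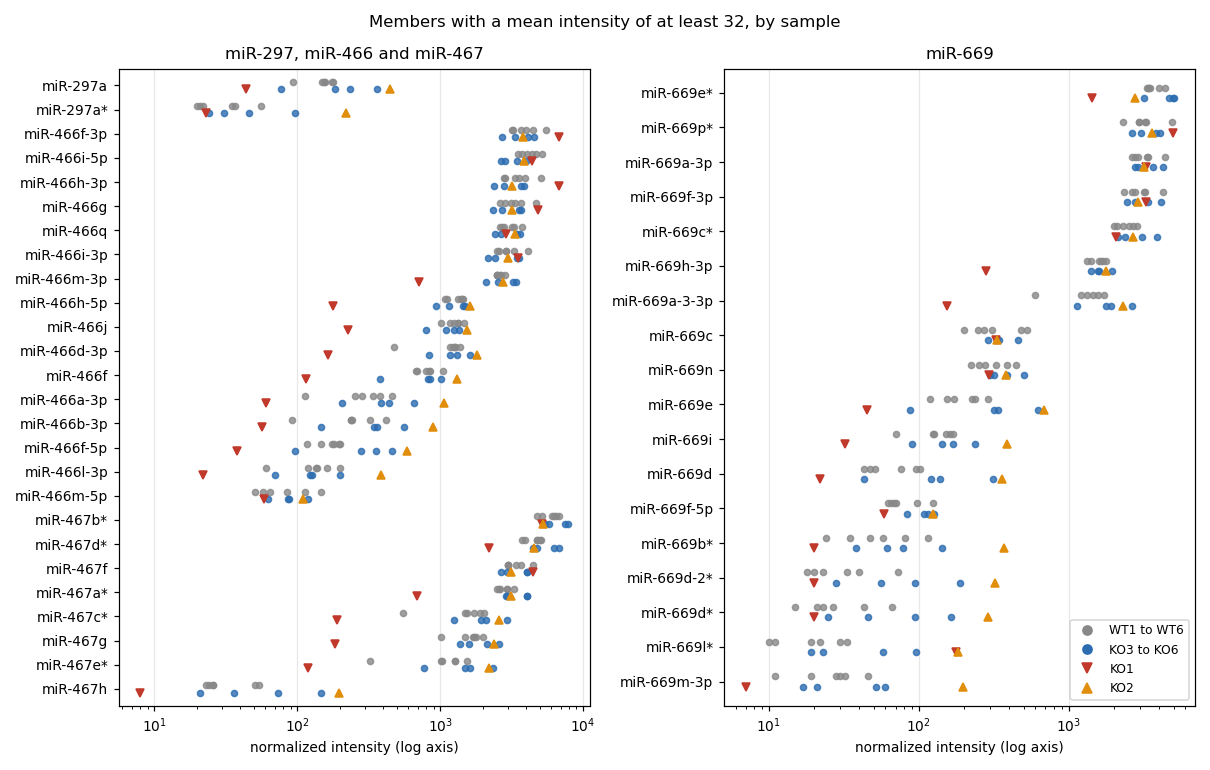
Normalized intensity (log axis) of the 44 tested members in each of the 12 samples, with WT as grey points, KO3 to KO6 as blue points, KO1 as red and KO2 as orange triangles. KO1 lies far to the left of the other samples in most members of intermediate intensity and in 4 of the 16 with a mean of at least 2500, and KO2 lies to the right in most dim members.

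KO1 had the lowest level of the members among the 12 samples. Averaged over the 44 tested members, the log2 intensity was 8.78 to 9.38 in the WT samples and 8.81 to 10.1 in KO2 to KO6, and 8.01 in KO1. In WT the mean of this value was 9.13 ± 0.23 (SD, n = 6), in KO it was 9.29 ± 0.78 (SD, n = 6), and without KO1 it was 9.54 ± 0.53 (SD, n = 5). KO1 was the lowest of the 12 samples in 25 of the 44 members (56.8%), and in 66 of the other 326 names (20.2%). Compared with the median of the other 5 KO samples, KO1 was lower by more than 1 on the log2 scale, which is a factor of 2, in 26 members (59.1%) and in 56 other names (17.2%). It was higher by more than 1 in 2 members, miR-669l* and miR-466h-3p, and in 67 other names. The median difference of KO1 was -2.07 over the members and 0.19 over the other names. KO1 was also the sample with the most other names past 1 in either direction, 123 (37.7%), followed by KO6 with 71 (21.8%). KO1 is 1 mouse on 1 array, and this difference was not tested.

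**Figure D2:**
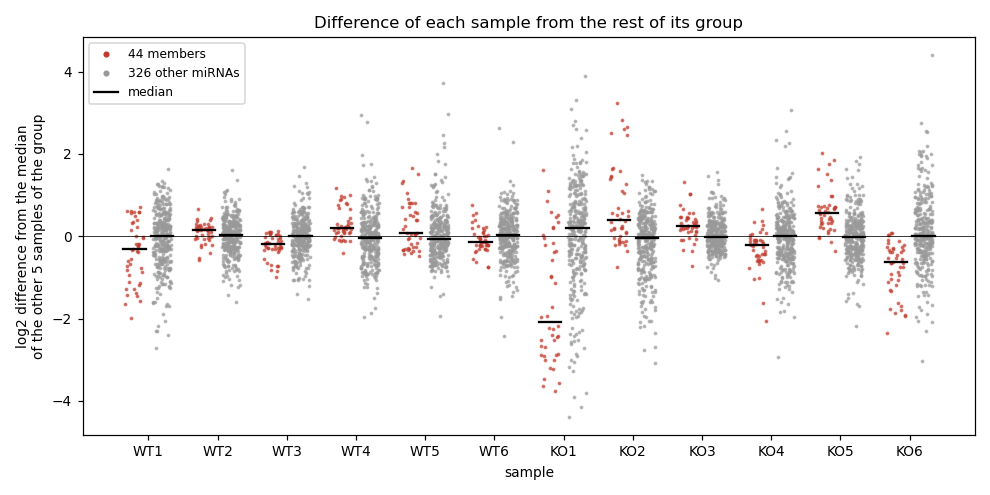
Difference of each sample from the median of the other 5 samples of its group (log2, vertical axis) for the 44 tested members (red) and the 326 other tested names (grey), with the median of each set as a black bar. The members of KO1 have a median of -2.07 with most points below -1, and in the other 11 samples the median of the members lies between -0.63 and 0.56.

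Other samples moved to a lesser degree. KO2 was the highest KO sample in 19 members (43.2%) and in 43 other names (13.2%), and 15 members (34.1%) exceeded the median of the other KO samples by more than 1 in it, against 16 other names (4.91%). KO6 lay more than 1 below in 14 members and 26 other names, and KO5 lay more than 1 above in 7 members and 13 other names. In WT, the sample WT1 was the lowest in 20 members (45.5%) and in 72 other names (22.1%), and 11 members and 31 other names were more than 1 below the other WT samples. WT1 was also the highest WT sample in 12 members (27.3%) and in 97 other names (29.8%). In 19 of the 44 members WT1 was the lowest WT sample and KO1 the lowest KO sample, as it was in 31 of the other 326 names. WT2, WT3 and WT6 had no member past 1 in either direction. The spread among the KO mice was accordingly wide: the median SD of log2 intensity over the members was 0.35 in WT, 1.13 in KO and 0.38 in KO without KO1, against 0.42, 0.60 and 0.46 over the other names. The SD was higher in KO than in WT in 38 of 44 members (86.4%) and 253 of 326 other names (77.6%), and without KO1 in 30 members (68.2%) and 194 other names (59.5%).

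The differences of KO1 and KO2, and in WT those of WT1, varied with the intensity of the member. Those of KO1 were largest between 500 and 2500 rather than at either end. Of the 16 members with a mean of at least 2500, 4 were more than 1 below the other KO samples in KO1 and none more than 1 above them in KO2. All 9 members between 500 and 2500 were more than 1 lower in KO1, with a median difference of -3.01, whereas none was more than 1 higher in KO2. Among the 10 members from 100 to 500, KO1 was that low in 8 and KO2 that high in 8. Of the 9 members from 32 to 100, KO1 was low in 5 and KO2 was high in 7. Of the other names in the same classes, from the brightest to the dimmest, KO1 was low in 2 of 49, 12 of 70, 20 of 98 and 22 of 109, and KO2 was high in 0, 0, 3 and 13. In WT1 the median difference of the members from the other WT samples was 0.45, -0.77, -0.89 and -0.67 in the same order. WT1 was more than 1 low in 0, 4, 4 and 3 members and in 3, 4, 13 and 11 other names. The bounds of these classes were chosen after the values were seen. The limit of 32 and the classes use means that include KO2, so a high KO2 value helps a dim name pass. The WT means of miR-669l*, miR-669m-3p and miR-297a* were 20.8, 27.7 and 31.8, so that these passed the limit only through KO samples. The count for KO2 in the dimmest class is therefore in part set by the limit, for members and other names alike.

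**Figure D3:**
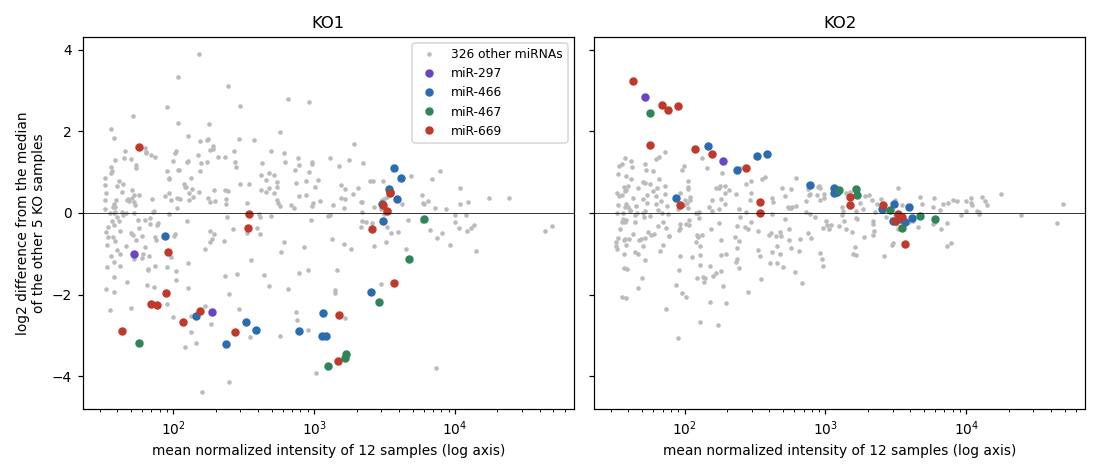
Difference of KO1 (left) and KO2 (right) from the median of the other 5 KO samples (log2, vertical axis) against the mean intensity over 12 samples (log axis), with the members coloured by family and the other 326 names in grey. In KO1 the members with a mean of at least 2500 lie between -2.18 and 1.11 and most dimmer members between -2 and -4, and in KO2 they rise above 0 towards the dim end.

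In miR-467 the star names showed both behaviours side by side. miR-467b* was the brightest member, at 4793 to 6745 in WT (median 6142.5) and 5200 to 7918 in KO (median 5611.5), and KO1 was at 5200, the lowest KO value but within the WT range. miR-467d* was at 3760 to 5078 in WT (median 4761) and 2189 to 6744 in KO (median 4661.5), with KO1 at 2189 and the other KO samples at 4474 or higher. Both groups overlapped in each of these members, and in miR-467d* only KO1 lay below the WT range.

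miR-467a* ran from 2498 to 3293 in WT (median 2773) and from 2896 to 4035 in KO2 to KO6, with KO1 at 689, 4.53-fold below the median of the other KO samples. miR-467c* was at 191 in KO1 against 1243 to 2937 in the other KO samples, and at 555 in WT1 against 1483 to 2017 in the other WT samples. The largest gap of KO1 was in miR-467e*, at 120 in KO1 and 771 to 2344 in the other KO samples, a factor of 13.5 from their median; it is named here after its values were seen. In miR-467e* WT1, at 323, was again below the other WT samples, at 1010 to 1556. miR-467a*, miR-467b*, miR-467c*, miR-467d* and miR-467e* all come from genes inside Sfmbt2.

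In miR-466 the brightest members were as high in KO1 as elsewhere, or higher. miR-466f-3p was at 3204 to 5535 in WT (median 3842) and 2699 to 6838 in KO (median 3950), with the highest value in KO1. miR-466h-3p was at 2802 to 5125 in WT (median 3450) and at 2379 to 3890 in KO2 to KO6, and reached 6822 in KO1. miR-466g was at 2623 to 4720 in WT (median 3249) and 2333 to 4823 in KO (median 3378), again highest in KO1. In these 3 members WT1 was the highest WT sample. miR-466i-5p ran from 3508 to 5146 in WT (median 4223) and from 2655 to 4410 in KO (median 3658.5), with KO1 the highest KO sample.

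The opposite arm of the miR-466h hairpin was low in KO1. miR-466h-5p was at 1091 to 1444 in WT (median 1373), at 933 to 1626 in KO2 to KO6 and at 179 in KO1, 8.04-fold below the median of the other KO samples. miR-466f, for which the name gives no arm, was at 675 to 1051 in WT (median 816), 378 to 1304 in KO2 to KO6 and 115 in KO1. miR-466m-3p was at 2494 to 2864 in WT (median 2568.5), and at 2099 to 3398 in KO2 to KO6 and 716 in KO1. It is named after its values were seen. In KO1 members of miR-466 thus lay both above and below the other KO samples.

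In miR-669, miR-669e* was at 3333 to 4386 in WT (median 3453.5), 2784 to 5017 in KO2 to KO6 and 1423 in KO1. miR-669p* was at 2307 to 4858 in WT (median 3089.5) and 2639 to 4981 in KO (median 3705.5), with the highest values of each group in WT1 and KO1. miR-669a-3p ran from 2650 to 4385 in WT (median 3129) and from 2757 to 4257 in KO (median 3238.5). In miR-669a-3p KO1, at 3278, was in the middle of its group. miR-669f-3p was at 2351 to 4222 in WT (median 2954.5) and 2430 to 4103 in KO (median 3089), and miR-669c* at 2016 to 2852 in WT (median 2413.5) and 2064 to 3865 in KO (median 2526.5). The groups overlapped in each of these members. miR-669c and miR-669n, at mean intensities of 342.8 and 340.9, were the 2 members between 100 and 500 in which KO1 was not low, at 326 and 296 against 288 to 458 and 299 to 501 in the other KO samples. Both are named after their values were seen.

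The dim miR-669 star names varied widely among the KO mice. miR-669d* was at 15 to 66 in WT (median 25) and 20 to 288 in KO (median 70), with KO1 the lowest and KO2 the highest. miR-669d-2* was at 18 to 73 in WT (median 28) and 20 to 321 in KO (median 75.5), with the same order of extremes. miR-669l* was at 10 to 33 in WT (median 20.5), and in KO at 178 in KO1, 183 in KO2, 58 in KO3, 23 in KO4, 96 in KO5 and 19 in KO6. In miR-669l* 4 of the 6 KO samples lay above every WT sample and KO4 and KO6 lay within the WT range. miR-669m-3p, just inside the limit of 32 with a mean of 43.4, was at 11 to 46 in WT (median 29), 17 to 60 in KO3 to KO6, 7 in KO1 and 198 in KO2.

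Of miR-297, miR-297a was at 94 to 177 in WT (median 154.5), with WT1 at 94 and the other WT samples at 150 or higher, and in KO it was at 44 in KO1, 443 in KO2 and 77 to 365 in the others. miR-297a* was at 20 to 56 in WT (median 28.5) and 23 to 221 in KO (median 38.5), with the highest value in KO2. miR-297a-5*, miR-297b-5p and miR-297c were at 14 or lower in all samples, the level of the median name of the array.

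The 28 members left out had mean intensities under 32. The nearest were miR-669k*, at 24 to 43 in WT and 10 to 58 in KO, miR-466c-5p, at 16 to 40 and 11 to 49, and miR-669a-5p, at 10 to 44 and 7 to 44. Just inside the limit, beside miR-669m-3p, were miR-297a* and miR-669l*, with means of 52.7 and 56.8.

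The difference between genotypes was fitted with limma to the 370 tested names, as log2 KO minus WT. Over the 44 members the median log2 change was 0.05, with 29 higher and 15 lower, beside a median of -0.08 over all 370. At an unadjusted p under 0.05, 1 of the 44 members (2.27%) passed, miR-669l*, where 19.5% of all tested names did and 9.73% did with a higher value in KO, as in miR-669l*. None of the members passed an adjusted p under 0.05, which 1.35% of all tested names did, and the lowest adjusted p of a member was 0.105 (limma). In none of the 44 did the KO samples lie entirely above or below the WT samples, as they did in 2.43% of all tested names. The log2 change of miR-669l* was 1.79 (standard error 0.577, unadjusted p = 0.00795, adjusted p = 0.105, limma). The WT mean of miR-669l*, 20.8, was under the intensity limit, so it was tested only through its KO values, above all KO1 (178) and KO2 (183). It also passed the unadjusted threshold with no filter on intensity. Its values lie near the dim end of the array, and the log2 change ran from 0.85 with a pseudocount of 50 to 2.15 over the alternatives tried. Because the families were singled out with results of these samples known, nothing is read from these counts.

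By family the median log2 change was 0.49 in the 2 members of miR-297, -0.02 in the 16 of miR-466, 0.03 in the 8 of miR-467 and 0.20 in the 18 of miR-669. The medians of miR-466 and miR-467 had no settled sign, and ran from -0.21 to 0.10 and from -0.14 to 0.35 over the alternatives tried. Those of miR-297 and miR-669 stayed above 0, from 0.13 to 0.79 and from 0.04 to 0.50. However, miR-297a* in the first family and miR-669l* and miR-669m-3p in the second passed the intensity limit only through KO samples, which can raise these medians. The log2 change of miR-297a, the other tested member of miR-297, ran from -0.08 to 0.59. Nothing is read from the sign of these 2 medians. By arm the median was 0.07 over 5p names, 0.02 over 3p names, 0.14 over star names and 0.09 over names with no arm. Over the alternatives it ran from -0.37 to 0.34, from -0.07 to 0.15, from 0.03 to 0.54 and from -0.14 to 0.35 in this order. Only the median of the star names kept its sign, and it fell to 0.03 without KO5. The star names include miR-669l* and miR-297a*, which passed the intensity limit only through KO samples. The alternatives also share most of their samples, so nothing is read from the kept sign. The 3 highest log2 changes were those of miR-669l*, miR-669d-2* (1.30, standard error 0.624, adjusted p = 0.261) and miR-669d* (1.26, standard error 0.618, adjusted p = 0.282), and the 3 lowest were those of miR-466j (-0.48, standard error 0.393, adjusted p = 0.554), miR-466h-5p (-0.47, standard error 0.451, adjusted p = 0.653) and miR-466f (-0.46, standard error 0.484, adjusted p = 0.685), all from limma and none past the adjusted threshold. Over the alternatives the log2 change of miR-669d-2* ran from 0.76 to 1.89 and that of miR-669d* from 0.71 to 1.90.

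Leaving out KO1 moved the members upwards. Without KO1 their median log2 change was 0.26, with 37 of 44 higher and 7 lower in KO. Over all names the median was -0.04, with 175 of 370 (47.3%) higher. The families were singled out above all for their values in KO1, so a shift on leaving it out follows in part from that choice. Nothing is read from this shift. At an unadjusted p under 0.05, 6 members (13.6%) passed, all of them higher in KO, where 28.6% of all tested names passed in either direction and 13.2% were higher. They were miR-669d-2*, miR-669d*, miR-669l*, miR-669d, miR-466f-5p and miR-669f-5p. No member passed an adjusted p under 0.05 without KO1, which 13.2% of all tested names did. The lowest adjusted p was 0.0695 (limma), for miR-669d-2*, with a log2 change of 1.68 (standard error 0.568). The groups stayed overlapping in all 44 members, against 6.49% of all tested names with groups apart. The log2 changes of miR-466j, miR-466h-5p and miR-466f became -0.09, 0.01 and 0.00 without KO1. With weights estimated for each array, in which KO1 had the lowest weight, 11 members passed the unadjusted and 7 the adjusted threshold, where 42.2% and 31.1% of all tested names did. All 7 were higher in KO, as were 15.1% of all tested names at that threshold. With KO1 weighted down, these counts too follow in part from how the families were chosen. At an unadjusted p under 0.05, 3 members passed with a replicate block (24.1% of all tested names), 2 with a variance trend (19.7%), 2 with quantile normalization (18.9%) and 3 of 72 with no filter on intensity (11.2%). The count was 3 with the block after cyclic loess (20.8%), 0 of 25 with the filter raised to 500 (31.2%), 3 without KO6 (22.4%), 3 without WT5 (19.2%), 3 without WT1 and KO1 (25.7%) and 3 without KO1 and KO2 (28.4%).

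**Figure D4:**
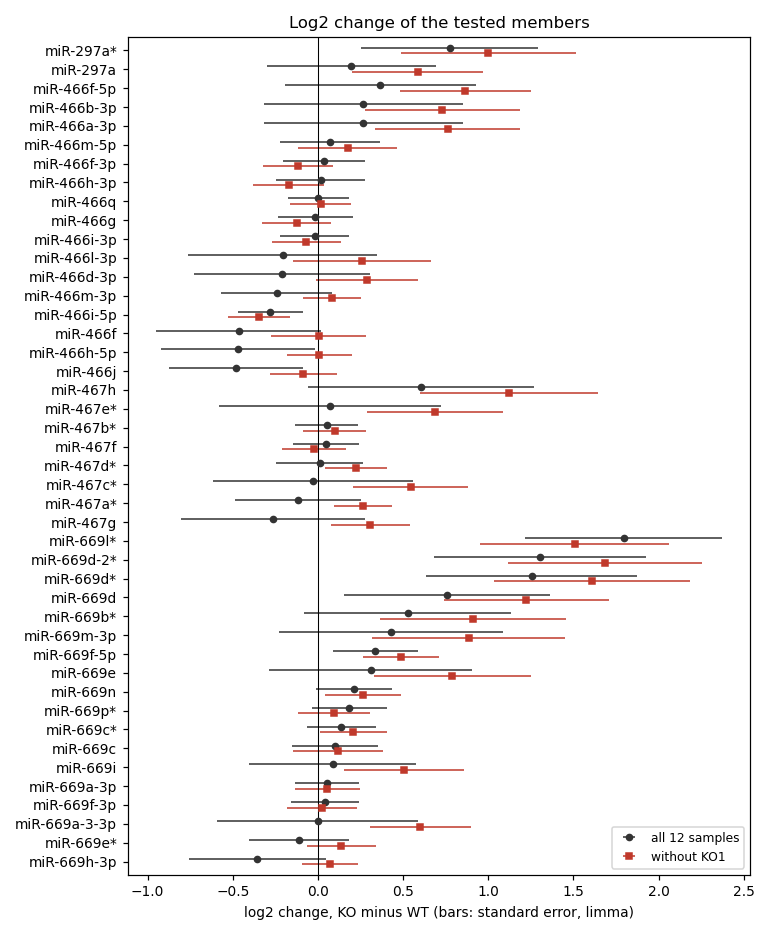
Log2 change, KO minus WT, of the 44 tested members with its standard error from limma, in all 12 samples (black) and without KO1 (red), ordered by family and by size. Without KO1 most of the dim and intermediate members move to the right, and among the brightest some stay in place, such as miR-466q at 0.00 and 0.02, and others move, such as miR-467d* at 0.01 and 0.22.

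By family the medians without KO1 were 0.79 in miR-297, 0.01 in miR-466, 0.29 in miR-467 and 0.50 in miR-669, and by arm 0.18 for 5p, 0.08 for 3p, 0.54 for star names and 0.26 for names with no arm. The median log2 change of the 16 with a mean of at least 2500 was 0.01 with KO1 and 0.04 without it. Of the 9 from 32 to 100 it was 0.60 and 1.0, but some of these passed the limit of 32 only through KO samples, which can raise it. By place, the 30 tested names from inside Sfmbt2 had a median of 0.06 with KO1 and 0.26 without it. The 8 tested names from outside it had medians of -0.01 and 0.00, and KO1 was more than 1 low in 19 of the 30 and 3 of the 8. The difference between these places was not tested.

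The members with a printed sequence divided in KO1. miR-467f, with its long A and C repeat, was at 4453 in KO1, 2686 to 4062 in the other KO samples and 2967 to 4437 in WT. miR-466q was at 2891 in KO1, 2411 to 3618 in the other KO samples and 2611 to 3724 in WT, and miR-466i-3p at 3501, 2167 to 3555 and 2484 to 4094. KO1 thus lay within the WT range or just above it in these 3. In miR-467g, of the same repeat with a shorter run, KO1 was at 183, the other KO samples at 1368 to 2580 and WT at 1008 to 1997, so that KO1 was 11.7-fold below the median of the other KO samples. Of the U and G repeats, miR-669n was at 296 in KO1 and 299 to 501 in the other KO samples, whereas miR-466j was at 227 against 799 to 1547 and miR-467h at 8 against 21 to 197. miR-466k was at 3 to 8 in all 12 samples.

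Outside the 4 families, 4 array names with an exact match held UGUGUGU, and none held ACACACA.
miR-574-5p: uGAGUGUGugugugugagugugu
miR-1187: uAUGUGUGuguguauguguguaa
miR-3097-5p: cACAGGUGggaagugugugucca
miR-3082-5p: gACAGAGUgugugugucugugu

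They are shown because they carry the same letters at other loci, and miR-1187 and miR-466j were 4 edits apart. miR-574-5p was at 2825 in KO1, 1868 to 2845 in the other KO samples and 2318 to 3905 in WT. miR-1187 was at 1734 in KO1, 1590 to 2280 in the other KO samples and 1818 to 2936 in WT. KO1 lay inside the range of the other KO samples in both. miR-3097-5p was at 943 in KO1 and 1581 to 1807 in the other KO samples, and miR-3082-5p at 390 against 446 to 1261, so that KO1 was the lowest of all 12 samples in these. None of the 4 passed the unadjusted or the adjusted threshold, and their log2 changes, KO minus WT, were -0.21, -0.24, -0.42 and -0.32 in the order above.

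**Figure D5:**
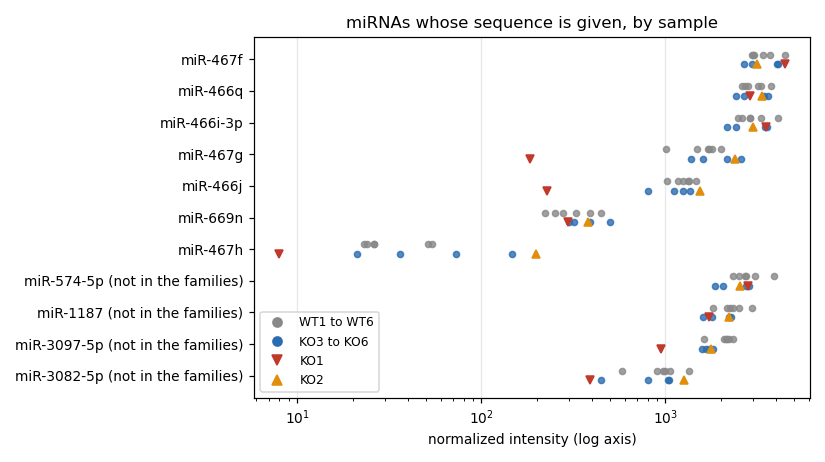
Normalized intensity (log axis) by sample of the 7 tested members and the 4 other names whose sequences are given, with WT in grey, KO3 to KO6 in blue, KO1 as red and KO2 as orange triangles. KO1 lies within or beside the range of the other samples in miR-467f, miR-466q, miR-466i-3p, miR-669n, miR-574-5p and miR-1187 and below all of them in miR-467g, miR-466j, miR-467h, miR-3097-5p and miR-3082-5p.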

How the data were processed

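Total RNA of quadriceps muscle was isolated with a miRVana kit and profiled by LC Biosciences on its microarray of mouse miRNAs (miRBase version 17). The deposited table holds linear normalized intensities as whole numbers, for 1096 names in 12 samples. The normalization, the background correction and the averaging of spots are not given in the sources used here. Groups and numbers came from the sample titles. Intensities were set to at least 1 and log2-transformed, names with a mean under 32 over the 12 samples were left out, and KO was compared with WT by limma 3.58.1 (lmFit, eBayes, two-sided) in R 4.3.3, over all 370 names left, with Benjamini-Hochberg adjustment and a threshold of 0.05. The number of arrays limits the precision. On simulated data the fit recovered 55.7% of log2 changes of 1 and 90.8% of changes of 2 among 370 names, with 4.59% false calls. Each simulated name varied on its own around its mean, with no sample standing apart. The rates therefore need not hold for the members, many of which were low together in KO1.

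The members, lists and tests were chosen with earlier results of these data known, and no set test was run. Named members are the 5 brightest of each family, the 3 highest and 3 lowest log2 changes, any past the adjusted threshold, and the 3 on each side of the limit of 32. Members with a sequence, and those said to be named after their values were seen, were added. The 11 alternatives on all samples were no filter or one at 500, a pseudocount of 50, a floor raised to 32, quantile, cyclic loess or median scaling, a replicate block with and without cyclic loess, a variance trend with robust estimation, and array weights. Each of the 12 samples was also left out in turn, and 2 pairs of samples were left out as an addition made after seeing the data. Sequences and gene positions are from RefSeq tables of GRCm38.p6. Exact names matched for 326 of the 1096 array names, and names were used as the file gives them. A check of base composition over the members was void, because 7 of the 44 tested had a sequence. Plots were drawn with matplotlib 3.10.9.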

Additional observations from a re-analysis of the deposited data

Results flagged for a closer look

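Samples that stood apart were found by Dixon's ratio for 6 samples, the distance on the log2 scale from an extreme sample to its neighbour divided by the full range in that genotype. This was done for 28 members and the mean of the 44 tested members in both groups, 58 groups in all, and 8 passed the critical value. Chance alone passes about 1 in 20 groups, but the members of an array are not independent and the families were singled out for their values in KO1, so that the ratios are a description and support nothing. KO1 was low in 6 of them: miR-467a* (gap 0.812), miR-467g (0.760), miR-466h-5p (0.748), miR-467c* (0.685), miR-466j (0.656) and miR-467d* (0.635). WT1 was low in miR-467c* (0.762) and in miR-297a (0.738). The mean of the 44 tested members passed the critical value in neither group.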

How the results depend on the processing

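The count of members past an unadjusted p of 0.05 was 1, where 19.5% of all tested names passed. It was 1 again with a floor of 32, a pseudocount of 50, median centring or cyclic loess, settings for which the share of all names was not counted. It was 0 with the filter raised to 500 (31.2% of all tested names), where 25 members were tested and miR-669l* was too dim to be among them. It was 2 with quantile normalization (18.9% of all tested names) and 2 with a variance trend (19.7%). With no filter, where 72 members were tested, it was 3 (11.2%), and with array weights it was 11 (42.2%). Array weights also took 7 members past the adjusted threshold (31.1% of all names passed it in that fit). The weight of KO1 there, 0.156, was the lowest of the 12. All 7 were higher in KO, where 15.1% of all tested names passed with a higher value in KO. They were led by miR-669d-2* (1.89, standard error 0.432, adjusted p = 0.00585, limma), and the others were miR-669l*, miR-669d*, miR-669d, miR-467h, miR-669f-5p and miR-466f-5p. The families were singled out above all for their values in KO1, so calls made with KO1 weighted down follow in part from that choice. Nothing is read from them. No other alternative took a member past the adjusted threshold. With a sample left out, the unadjusted count ran from 1 to 6. It was 6 without KO1 (28.6% of all tested names), 3 without KO6 (22.4%) and 3 without WT5 (19.2%). Otherwise it was 1, in fits for which the share of all names was not counted. The count was 3 without WT1 and KO1 together (25.7%) and 3 without KO1 and KO2 together (28.4%), settings chosen after seeing the data. miR-669l* passed the unadjusted threshold in each of these fits that tested it. These fits share most of their samples. Its WT mean of 20.8 was under the limit of 32, so that, except with no filter, it was tested only through its KO values. Nothing is read from its repeated passing. Why the counts moved was not tested where fewer or other names or samples do not show it.

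The median log2 change of the members, 0.05, ran from -0.02 to 0.35, so that its sign was not settled: it was below 0 without KO2, without KO5 and with the filter at 500. The mean log2 level of KO1 was 1.53 below that of the other KO samples and between 1.12 and 1.56 below it under the 7 other scalings, floors and filters.

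Samples with the same number did not all deviate together, with correlations of -0.453 to 0.594 across the 370 names, the highest for WT1 and KO1. Such correlations cannot show whether the numbers mark the littermate pairs of the methods, and the titles do not say so. The main fit did not use the numbers as pairs. With the number as a replicate block, 3 members passed the unadjusted threshold (24.1% of all tested names), and 3 after cyclic loess (20.8%), and none the adjusted one.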
